A study of Gallus gallus with 8 samples.

Results

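DNA repair and recombination genes were followed across 3 states of the chicken B cell line DT40. A gene was taken when its chicken RefSeq symbol began with one of the family prefixes RAD1, RAD2, RAD5, RAD9, RAD17, RAD18, XRCC, FANC, BRCA, ERCC, MSH, MLH, PARP, LIG with a digit, REV1, REV3 or BLM, or was RDM1, APEX1 or UNG. The rule uses names alone and no measured value. It found 34 genes, read by 63 probes, among the 5005 symbols that could be matched to the array. Another 39 of the 73 RefSeq symbols that fit the rule had no matched probe and were not analysed here, all mismatch repair genes with the prefixes MSH and MLH among them. The prefixes also caught 3 genes with other main roles, which are the peptidase gene BLMH, the cohesin subunit gene RAD21 and the mitotic helicase gene ERCC6L.

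DT40 comes from a bursal lymphoma and keeps altering its immunoglobulin genes in culture. Agilent 1-colour arrays were hybridised with RNA of 3 groups: 3 arrays labelled DKO, 2 arrays of BCL6KO cells, deficient in BCL6 alone, and 3 arrays of wild-type cells (WT). The DKO label stands for cells deficient in both IRF4 and BCL6, but BCL6 signal remained on those arrays, as given below. BCL6 represses transcription in germinal centres, whereas IRF4 drives plasma cell formation. The labels name no parental clone, and the extraction protocol speaks of separate cultures of WT and IRF4KO cells only. The p-values below therefore measure the spread between arrays, which may be technical.

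Homologous recombination copies sequence from an intact template, and BRCA2, RAD51D and XRCC3 are among the proteins that help to build the filament that searches for it. The Fanconi anaemia proteins open and clear crosslinks between strands, and end joining seals breaks without a template. In DT40 the same enzymes also serve immunoglobulin diversification: UNG removes uracil from the immunoglobulin genes, and the abasic site that is left is copied past, cut or repaired by gene conversion with XRCC3 and BRCA2.

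The labels were checked against the targeted genes before the repair genes were read. A log2 level here is the log2 ratio of a spot's processed signal to the 75th percentile of its array, so 0 is as bright as the spot at that percentile. IRF4 had a mean log2 level of -1.72 ± 0.06 on the DKO-labelled arrays, 5.09 ± 0.42 on the BCL6KO arrays and 3.01 ± 0.13 on the WT arrays (SD over 3, 2 and 3 arrays, here and below). BCL6 had a mean log2 level of 0.81 ± 0.14 on DKO-labelled, -4.73 ± 0.33 on BCL6KO and 2.56 ± 0.03 on WT arrays. The arrays labelled DKO thus kept signal on the BCL6 probe tested, and on another 2 of the 4 BCL6 probes. Those probes were well above background on both BCL6KO arrays too, so level rather than probe count set these groups apart. The IRF4 probe tested was also well above background on all 3 DKO-labelled arrays. In the authors' value table, the columns labelled WT follow the DKO-labelled scanner files and the columns labelled DKO match none of the scanner files. The file nearest to the latter was that of WT replicate 1 (Spearman correlation 0.85 to 0.97). Log2 IRF4 in that table was 14.47 to 15.20 under DKO, 9.55 to 9.67 under WT, and 16.12 and 16.51 under BCL6KO. Log2 BCL6 was 13.66 to 13.76 under DKO, 12.03 to 12.29 under WT, and 6.80 and 6.36 under BCL6KO. The group of scanner files labelled DKO is therefore called DKO-labelled throughout, and every direction drawn from it rests on that label.

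The arrays differed in ways that touch all results below. Between 65.8% and 67.8% of the 43803 spots were well above background on DKO-labelled arrays, 75.1% to 79.2% on BCL6KO arrays and 62.4% to 68.2% on WT arrays. The BCL6KO arrays were scanned on another date than both other groups. Their signal was also extracted with a later version of the Feature Extraction software. No BCL6KO array shared a slide with an array of another group. Effects of slide, scanning, signal extraction and genotype therefore cannot be told apart in any comparison with BCL6KO. The DKO-labelled and WT arrays shared a scan date, a software version and 2 slides. WT replicate 1 and DKO-labelled replicate 3 lay on slides without an array of the other group. Of 10 B cell markers on the array, 9 were well above background on every DKO-labelled array, 7 on both BCL6KO arrays and 10 on every WT array, and PAX5, which maintains B cell identity, was not well above background on either BCL6KO array. The summed log2 level of these markers was 6.64 to 6.88 on DKO-labelled, 4.99 to 5.69 on BCL6KO and 7.36 to 7.50 on WT arrays. POU2AF1, with log2 levels of 4.95 and 5.66, made up most of the BCL6KO sum. Its log2 change in BCL6KO against WT was 0.28 (limma adjusted p = 0.271). Every other of these B cell markers was lower there, by log2 changes from -1.01 for SYK to -9.68 for CD72. The sum therefore understates the loss of B cell marker signal on the BCL6KO arrays. For 5 fibroblast or adherent cell markers it was 1.27 to 1.49 on DKO-labelled, 2.49 to 2.86 on BCL6KO and -1.63 to -1.48 on WT arrays, and 3 of the 5 (CDH11, COL6A1 and POSTN) were below that limit on all WT arrays. The summed log2 level of 5 T cell markers was 3.08 to 3.46 on DKO-labelled, 0.73 to 1.60 on BCL6KO and 6.04 to 6.09 on WT arrays, with CD4 well above background on none of the 8 arrays. For 3 erythroid markers it was 0.17 to 0.26 on DKO-labelled, -2.53 to -2.35 on BCL6KO and -3.41 to -3.19 on WT arrays. For 3 myeloid markers it was -5.89 to -5.15 on DKO-labelled, -4.81 to -4.18 on BCL6KO and -6.71 to -5.62 on WT arrays, and CD14 was well above background on no array. Single genes made up most of several sums, by mean log2 level CDH11 (2.61, BCL6KO), COL1A2 (1.30, DKO-labelled) and HBBA (0.09, DKO-labelled). CD3D did so for the T cell sum in all 3 groups. Genes of a list could differ in direction. In BCL6KO against WT the log2 change was 9.85 for CDH11 and -1.53 for COL1A2, and -5.01 for CD3D and 4.09 for CD28. A sum therefore does not speak for every gene of its list. The part of these differences in the repair gene results was not tested. In RNA from whole cultures, fewer cells of a type and less RNA per cell cannot be told apart.

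Repair genes were mostly lower in BCL6KO cells than in WT cells. A gene was called when its limma test, with Benjamini-Hochberg adjustment over all 24136 genes tested, gave an adjusted p under 0.05. The error of that test was pooled over the 3 groups, although the 2 BCL6KO arrays lay further apart. The SD of the differences between 2 arrays was 0.65 within BCL6KO and 0.44 to 0.49 within the other groups. For genes with a wide BCL6KO spread, the SEs, intervals and p-values of comparisons with BCL6KO can therefore be too narrow. All 34 repair genes passed the filter on dim probes, as all were well above background on every array of at least 2 groups. In BCL6KO against WT 21 fell, 7 rose and 6 did not pass the test, where 69.6% of all genes were called, 27.7% lower and 42% higher. The median log2 change of the repair genes was -0.65, against 0.24 over all genes. In DKO-labelled against WT 16 fell, 5 rose and 13 did not pass, where 52.3% of all genes were called, 23.7% lower and 28.5% higher, and the medians were -0.21 and 0.07. In DKO-labelled against BCL6KO 18 rose, 5 fell and 11 did not pass, where 68.3% of all genes were called, 29% higher and 39.4% lower, and the medians were 0.32 and -0.18. These 3 comparisons share arrays, so they are given side by side and not as separate evidence.

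The split between higher and lower moved with the scaling, though lower calls outnumbered higher ones among the repair genes in both comparisons with WT under median scaling, quantile normalization and cyclic loess too. Scaling each array to its median in place of its 75th percentile put the median change of all genes at -0.05 in place of 0.24 in BCL6KO against WT, and at -0.08 in place of 0.07 in DKO-labelled against WT. The share of higher among all called genes was then 45.3% in place of 60.3% in BCL6KO against WT, and 41.8% in place of 54.6% in DKO-labelled against WT. The repair genes then gave 27 lower and 4 higher calls in BCL6KO against WT, and 20 lower and 3 higher calls in DKO-labelled against WT. With normexp background correction as planned, 14 repair genes were called in BCL6KO against WT, 6 in DKO-labelled against WT and 9 in DKO-labelled against BCL6KO, and with a minimum fold of 1.5 the counts were 17, 5 and 9. In BCL6KO against WT normexp ended the calls of ERCC6L, FANCB, FANCG, FANCI, LIG4, PARP4, RAD17, RAD18, RAD23B, RAD9A, RDM1, REV1, UNG and XRCC6, and once 21 spots of aberrant background on 1 BCL6KO array were repaired it ended those of FANCG and XRCC6. The calls that held with normexp as planned were those of BRCA2, ERCC5, FANCL, LIG4, PARP11 and RAD54B in DKO-labelled against WT, and those of BLM, BLMH, BRCA1, FANCL, LIG3, LIG4, PARP11, RAD21 and RAD54B in DKO-labelled against BCL6KO. With the minimum fold, BRCA2, FANCL, LIG4, RAD54B and UNG were called in DKO-labelled against WT, and BLM, BLMH, FANCB, FANCI, FANCL, LIG3, RAD54B, RDM1 and UNG in DKO-labelled against BCL6KO.

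Single arrays decided some calls. In DKO-labelled against WT 2 or 3 repair genes were called higher without any 1 DKO-labelled or WT array, compared with 5 on all arrays. Leaving out either BCL6KO array left 1 array in that group, so no BCL6KO spread entered the pooled error. BRCA1, ERCC3, FANCG, BLMH and RAD9A then gained calls in DKO-labelled against WT. In DKO-labelled against BCL6KO the calls gained that way set a single array against the spread of the other groups. They are therefore not listed. The FANCA change was 0.23 without BCL6KO replicate 2 and -0.20 without BCL6KO replicate 1, so its direction turned.

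**Figure D1:**
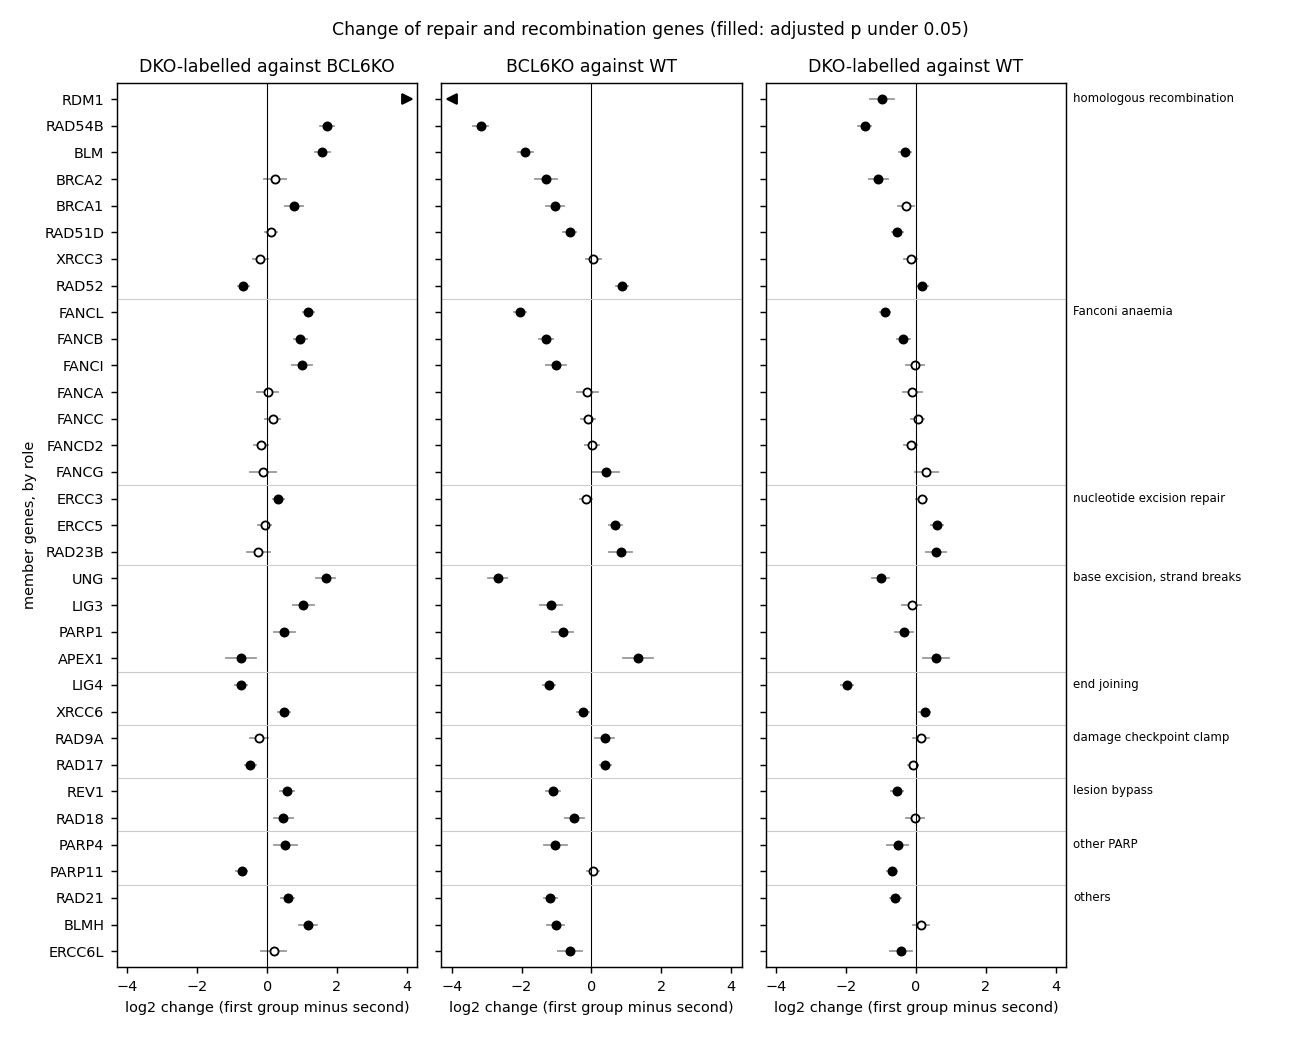
Log2 change of the repair genes reported here (horizontal axis, first group minus second) in DKO-labelled against BCL6KO, BCL6KO against WT and DKO-labelled against WT, with bars for the 95% interval, filled points for an adjusted p under 0.05 and arrowheads for RDM1 beyond the axis. In the middle panel most filled points lie to the left of 0 and 7 lie to the right. LIG4 and PARP11 have filled points left of 0 in both comparisons of the DKO-labelled arrays.

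Among the 9 genes of homologous recombination, 7 fell and 1 rose in BCL6KO against WT, and 6 fell and 1 rose in DKO-labelled against WT. Over all genes tested, 27.7% were lower and 42% higher in the first of these comparisons, and 23.7% lower and 28.5% higher in the second. RAD54B, a DNA-dependent motor protein of homologous recombination, had log2 levels of 0.53, 0.49 and 0.48 on the DKO-labelled arrays, -1.34 and -1.09 on the BCL6KO arrays and 1.95, 1.94 and 1.99 on the WT arrays. The 3 groups did not overlap, with WT highest and BCL6KO lowest. RAD54B fell 9.04-fold in BCL6KO against WT (log2 change -3.18 ± 0.09 SE, limma adjusted p = 3.95e-07) and 2.75-fold in DKO-labelled against WT (-1.46 ± 0.08). It was 3.28-fold higher in DKO-labelled than in BCL6KO cells (1.71 ± 0.09). Its second probe changed by -2.97, -1.56 and 1.41 on the log2 scale in the same 3 comparisons.

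RDM1, a protein with a RAD52 motif known in DT40 cells for protection against cisplatin, had log2 levels of 0.01, 0.12 and 0.05 on the DKO-labelled arrays, -9.83 and -9.24 on the BCL6KO arrays and 0.99, 1.09 and 1.02 on the WT arrays. It was not well above background on either BCL6KO array and was the single repair gene with such a group. RDM1 signal in BCL6KO lay under that of WT by 419-fold or more, and under that of DKO-labelled cells by 214-fold or more. These bounds set the mean of the brighter group against the dimmest signal still well above background on each BCL6KO array. The bounds themselves were not tested. The limma test used the measured signal, which on the BCL6KO arrays was not well above background. It gave log2 changes of -10.57 in BCL6KO against WT (adjusted p = 4.98e-08) and 9.59 in DKO-labelled against BCL6KO (adjusted p = 7.96e-08). In DKO-labelled against WT RDM1 fell 1.96-fold (log2 change -0.97 ± 0.15 SE, adjusted p = 0.00134). With normexp background correction as planned, the log2 change in BCL6KO against WT was -3.68 (adjusted p = 0.0556), and it was -5.93 (adjusted p = 4.23e-10) with those 21 background spots repaired.

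The genes that flank RDM1 in the RefSeq order did not all share its pattern. CD79B, a B cell receptor signalling chain found 3 places to one side, had mean log2 levels of 5.02 ± 0.18 on DKO-labelled, -2.65 ± 0.25 on BCL6KO and 6.13 ± 0.07 on WT arrays. PLEKHM1, 3 places to the other side, had mean log2 levels of 1.15 ± 0.06 on DKO-labelled, 1.11 ± 0.05 on BCL6KO and 1.36 ± 0.01 on WT arrays. The growth hormone gene GH, next to RDM1, was not well above background on any array.

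BLM, the helicase that dissolves crossed recombination intermediates, had log2 levels of 2.57, 2.55 and 2.44 on DKO-labelled, 0.85 and 1.03 on BCL6KO and 2.87, 2.85 and 2.76 on WT arrays. BCL6KO arrays lay far below both other groups, and the DKO-labelled arrays lay just under WT. The fall in BCL6KO against WT was 3.71-fold (log2 change -1.89 ± 0.08 SE, adjusted p = 3.31e-06), and the other 3 BLM probes changed by -1.18, -1.42 and -1.41. In DKO-labelled against WT the log2 change was -0.31 ± 0.08, and it was not called with slide as a fixed block, without DKO-labelled replicate 3 or without WT replicate 1 or 2.

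BRCA2, which prepares single strands for strand exchange, had log2 levels of 0.07, 0.05 and 0.09 on DKO-labelled, -0.37 and 0.07 on BCL6KO and 1.07, 1.15 and 1.21 on WT arrays. Both knockout groups lay below every WT array and overlapped each other. The log2 change was -1.29 ± 0.13 SE in BCL6KO against WT and -1.07 ± 0.12 in DKO-labelled against WT, with 0.22 (95% interval -0.09 to 0.53) in DKO-labelled against BCL6KO, which did not pass the test. BRCA1, which acts upstream of BRCA2, had log2 levels of 0.94, 0.86 and 1.01 on DKO-labelled, 0.01 and 0.32 on BCL6KO and 1.25, 1.12 and 1.26 on WT arrays. BRCA1 fell 2.06-fold in BCL6KO against WT, whereas in DKO-labelled against WT its log2 change of -0.27 missed the threshold (adjusted p = 0.0513) and was called under 10 alternatives.

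RAD51D, which works in the same step, fell in both knockout groups, with log2 changes of -0.53 in DKO-labelled and -0.63 in BCL6KO against WT. The XRCC3 probe tested passed in none of the 3 comparisons, with a log2 change of 0.05 (95% interval -0.16 to 0.26) in BCL6KO against WT that was -0.25 under median scaling. However, 2 further XRCC3 probes, adjusted over all probes, changed by 0.38 and 0.22 and passed there. Those 2 probes also passed in DKO-labelled against BCL6KO, where they changed by -0.40 and -0.35. RAD52, an annealing protein, was the one gene of this role that rose: its log2 levels were 0.30, 0.31 and 0.32 on DKO-labelled, 1.04 and 0.93 on BCL6KO and 0.06, 0.14 and 0.15 on WT arrays. The rise in BCL6KO against WT was 1.83-fold (log2 change 0.87 ± 0.07 SE, adjusted p = 4.32e-05) and that in DKO-labelled against WT was 1.14-fold, which lost its call under 13 alternatives.

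**Figure D2:**
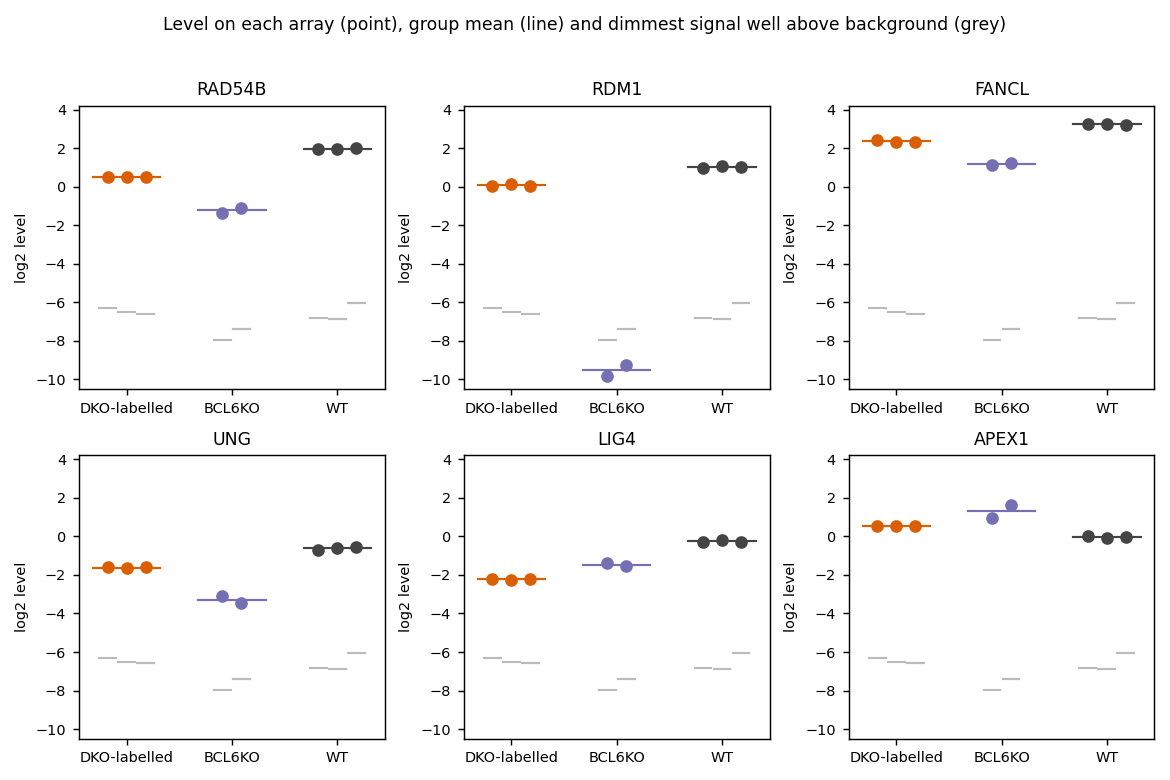
Log2 level of 6 repair genes on every array (points), with the group mean (coloured line) and the dimmest signal well above background on each array (grey line), for DKO-labelled, BCL6KO and WT arrays. RAD54B, RDM1, FANCL and UNG are lowest on the BCL6KO arrays, RDM1 there lies below the grey lines, LIG4 is lowest on the DKO-labelled arrays and APEX1 is highest on the BCL6KO arrays.

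Of the 7 Fanconi anaemia genes, 3 fell, 1 rose and 3 did not pass in BCL6KO against WT, where 69.6% of all genes were called, 27.7% lower and 42% higher. In DKO-labelled against WT 2 fell and 5 did not pass, where 23.7% of all genes were lower and 28.5% higher, so the share that fell there was near that of all genes. FANCL, the ubiquitin ligase of the core complex, had log2 levels of 2.40, 2.34 and 2.34 on DKO-labelled, 1.13 and 1.25 on BCL6KO and 3.25, 3.25 and 3.21 on WT arrays. The groups did not overlap, and the order was that of RAD54B. FANCL fell 4.14-fold in BCL6KO against WT (log2 change -2.05 ± 0.07 SE, adjusted p = 8.45e-07) and 1.84-fold in DKO-labelled against WT (-0.88 ± 0.06), and its second probe changed by -1.89 and -0.96.

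FANCI, one of the pair of proteins that FANCL ubiquitinates, had log2 levels of -1.70, -1.39 and -1.66 on DKO-labelled, -2.70 and -2.47 on BCL6KO and -1.57, -1.52 and -1.57 on WT arrays. It fell 2.04-fold in BCL6KO against WT (log2 change -1.03 ± 0.12 SE), while DKO-labelled and WT arrays overlapped (-0.03, 95% interval -0.29 to 0.23). With normexp as planned the FANCI change in BCL6KO against WT was -0.025 (adjusted p = 0.963) and not called, and with the background spots repaired it was -0.91. Its partner FANCD2 had log2 levels of -3.39, -3.25 and -3.30 on DKO-labelled, -3.18 and -3.10 on BCL6KO and -3.09, -3.25 and -3.15 on WT arrays, and passed the test in no comparison. The FANCD2 change in BCL6KO against WT was 0.02 (95% interval -0.18 to 0.22), and its sign turned under median scaling (-0.28), quantile normalization (-0.24) and cyclic loess (-0.30). With normexp it was 1.26 as planned, which did not pass the test (adjusted p = 0.141), and 0.02 with the background spots repaired.

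FANCB, another core complex subunit, gave probes that disagreed. The probe tested had log2 levels of -0.75, -0.74 and -0.65 on DKO-labelled, -1.76 and -1.56 on BCL6KO and -0.31, -0.37 and -0.38 on WT arrays, and changed by -1.31 in BCL6KO against WT. The second probe changed by -0.03 in that comparison and by -0.42 in DKO-labelled against BCL6KO, where the probe tested changed by 0.95, so the fall of FANCB in BCL6KO cells rests on 1 probe. In DKO-labelled against WT both FANCB probes fell, by 0.36 and 0.45 on the log2 scale. FANCA and FANCC, also of the core complex, passed in no comparison: FANCA changed by -0.10 and FANCC by 0.05 in DKO-labelled against WT, and by -0.12 and -0.10 in BCL6KO against WT, where both were called under median scaling. FANCG was called higher in BCL6KO than in WT by 0.42 on the log2 scale (adjusted p = 0.0472), and 15 alternatives ended that call. Its second probe rose there by 0.56 (adjusted p over all probes 9.50e-04).

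Of the 4 genes of base excision and single strand break repair, 3 fell and APEX1 rose in BCL6KO against WT. Of all genes tested, 27.7% were lower and 42% higher there. UNG, the glycosylase that removes uracil, had log2 levels of -1.61, -1.65 and -1.61 on DKO-labelled, -3.12 and -3.48 on BCL6KO and -0.69, -0.62 and -0.55 on WT arrays. No group overlapped another, with BCL6KO lowest and WT highest. UNG fell 6.41-fold in BCL6KO against WT (log2 change -2.68 ± 0.11 SE, adjusted p = 2.59e-06) and 2.00-fold in DKO-labelled against WT (adjusted p = 2.00e-04), and was 3.20-fold higher in DKO-labelled than in BCL6KO. UNG is read by a single probe, and with normexp as planned it was called in none of the 3 comparisons, with log2 changes of -1.13 in BCL6KO against WT, -0.96 in DKO-labelled against WT and 0.18 in DKO-labelled against BCL6KO. With the background spots repaired these were -2.33, -0.96 and 1.37, all called.

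APEX1, the endonuclease that cuts the abasic site UNG leaves, moved the other way. Its log2 levels were 0.54, 0.54 and 0.56 on DKO-labelled, 0.98 and 1.62 on BCL6KO and 0.04, -0.09 and -0.04 on WT arrays. BCL6KO arrays were highest and WT lowest, with no overlap, although the 2 BCL6KO arrays lay further apart than any pair within the other groups. APEX1 rose 2.51-fold in BCL6KO against WT (log2 change 1.33 ± 0.18 SE, adjusted p = 5.27e-04) and 1.49-fold in DKO-labelled against WT (0.58 ± 0.16, adjusted p = 0.0192), and leaving out 1 BCL6KO array gave 1.01 to 1.65 in BCL6KO against WT. The call in DKO-labelled against WT was lost without any 1 DKO-labelled array and without WT replicate 2 or 3.

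LIG3, the ligase that seals nicks at the end of base excision, had log2 levels of 4.0, 4.06 and 4.01 on DKO-labelled, 2.76 and 3.21 on BCL6KO and 4.21, 4.12 and 4.10 on WT arrays. It fell 2.23-fold in BCL6KO against WT (log2 change -1.16 ± 0.13 SE), with -1.16 and -1.26 on its other 2 probes, and did not pass the test in DKO-labelled against WT (-0.12, 95% interval -0.40 to 0.16). PARP1, the sensor of strand breaks, had log2 levels of 5.54, 5.53 and 5.56 on DKO-labelled, 4.83 and 5.26 on BCL6KO and 5.90, 5.87 and 5.86 on WT arrays. Its log2 change was -0.83 in BCL6KO against WT and -0.34 in DKO-labelled against WT, and the second call (adjusted p = 0.0411) was lost without any 1 DKO-labelled or WT array, although the other 2 PARP1 probes changed by -0.55 and -0.40 and passed the test over all probes.

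End joining was read by 2 genes that differed from each other. LIG4, the ligase of that pathway, had log2 levels of -2.20, -2.26 and -2.23 on DKO-labelled, -1.40 and -1.56 on BCL6KO and -0.30, -0.20 and -0.28 on WT arrays. The groups did not overlap, and here the DKO-labelled arrays were lowest. LIG4 fell 3.92-fold in DKO-labelled against WT (log2 change -1.97 ± 0.07 SE, adjusted p = 1.19e-06), 2.33-fold in BCL6KO against WT (-1.22 ± 0.08) and 1.68-fold in DKO-labelled against BCL6KO (-0.75 ± 0.08, adjusted p = 1.49e-04). The call in BCL6KO against WT was lost with normexp as planned (-0.77, adjusted p = 0.0704) and the call in DKO-labelled against BCL6KO with a minimum fold of 1.5 (adjusted p = 0.0872). It was the repair gene with the largest fall in DKO-labelled against WT. In the columns of the authors' value table that carry the DKO label, the LIG4 change against BCL6KO was 1.18. Those columns match none of the scanner files, so that value is no recheck of the fall. XRCC6, the Ku70 subunit that binds broken ends, had log2 levels of 2.76, 2.83 and 2.82 on DKO-labelled, 2.40 and 2.24 on BCL6KO and 2.56, 2.58 and 2.52 on WT arrays. Its changes of 0.25 in DKO-labelled and -0.23 in BCL6KO against WT were called, but 11 and 12 alternatives ended those calls, while DKO-labelled against BCL6KO gave 0.48 (adjusted p = 0.00109). The second XRCC6 probe changed by 0.24 in both comparisons of the DKO-labelled arrays and passed the test over all probes. In BCL6KO against WT it changed by -0.004 and did not pass, so that fall rests on the probe tested.

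Nucleotide excision repair, read by 3 genes, and the damage checkpoint clamp, read by 2, held 4 of the 7 genes that rose in BCL6KO against WT. Of all genes tested, 42% were higher in that comparison. RAD23B, which helps to recognise helix-distorting damage, had log2 levels of 3.55, 3.43 and 3.45 on DKO-labelled, 3.50 and 3.96 on BCL6KO and 2.90, 2.84 and 2.94 on WT arrays. Both knockout groups lay above every WT array. RAD23B rose 1.49-fold in DKO-labelled against WT and 1.78-fold in BCL6KO against WT, and its other 2 probes rose by 1.24 and 1.17 on the log2 scale in BCL6KO against WT. In DKO-labelled against BCL6KO those 2 probes changed by -0.69 and -0.64 and passed the test over all probes, whereas the probe tested (-0.26) did not pass.

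ERCC5, the endonuclease XPG, had log2 levels of -0.19, -0.15 and -0.16 on DKO-labelled, -0.10 and -0.10 on BCL6KO and -0.89, -0.70 and -0.74 on WT arrays. The knockout groups again lay above every WT array. ERCC5 rose 1.53-fold in DKO-labelled against WT (log2 change 0.61 ± 0.07 SE, adjusted p = 3.36e-04) and 1.60-fold in BCL6KO against WT (0.68 ± 0.08, adjusted p = 2.56e-04), and was the repair gene with the largest rise in DKO-labelled against WT. ERCC3, the XPB helicase of the general transcription factor TFIIH, changed by 0.16 in DKO-labelled and -0.16 in BCL6KO against WT, neither passing the test, and its second probe changed by 0.22 and 0.10. Without BCL6KO replicate 2, a single BCL6KO array was set against WT. The lower calls of ERCC3 and FANCA there have no BCL6KO spread behind them. The clamp genes RAD9A, a clamp subunit, and RAD17, part of the clamp loader, rose in BCL6KO against WT by 0.38 and 0.39 on the log2 scale and did not pass in DKO-labelled against WT (0.15 and -0.09). Under median scaling neither clamp gene was called in BCL6KO against WT, and RAD9A was not called without WT replicate 2 or 3. The second RAD9A probe rose by 0.97 in BCL6KO against WT (adjusted p over all probes 4.48e-04) and changed by -0.75 in DKO-labelled against BCL6KO, where it was called and the probe tested was not.

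Lesion bypass was read by 2 genes, both lower in BCL6KO than in WT, where 27.7% of all genes tested were lower. REV1, a polymerase that places cytosine opposite abasic sites, had log2 levels of -0.21, -0.08 and -0.07 on DKO-labelled, -0.61 and -0.77 on BCL6KO and 0.44, 0.43 and 0.38 on WT arrays. The 3 groups did not overlap, and the log2 change was -0.54 ± 0.07 SE in DKO-labelled against WT and -1.10 ± 0.08 in BCL6KO against WT. With normexp as planned neither REV1 change was called, at -0.49 in DKO-labelled against WT (adjusted p = 0.263) and -0.64 in BCL6KO against WT (adjusted p = 0.0819), and the minimum fold of 1.5 ended the call in DKO-labelled against WT. RAD18, the ligase that marks PCNA at stalled forks, had log2 levels of 3.34, 3.40 and 3.42 on DKO-labelled, 2.73 and 3.12 on BCL6KO and 3.45, 3.42 and 3.36 on WT arrays. It fell 1.40-fold in BCL6KO against WT, while DKO-labelled and WT arrays overlapped (log2 change -0.03, 95% interval -0.28 to 0.22).

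PARP11, a PARP family member that transfers single ADP-ribose units, fell in both comparisons of the DKO-labelled arrays. Its log2 levels were -0.47, -0.47 and -0.37 on DKO-labelled, 0.34 and 0.25 on BCL6KO and 0.28, 0.23 and 0.24 on WT arrays. It fell 1.61-fold in DKO-labelled against WT (log2 change -0.69 ± 0.06 SE, adjusted p = 1.03e-04) and 1.66-fold in DKO-labelled against BCL6KO (-0.73 ± 0.07), with 0.04 (95% interval -0.12 to 0.21) in BCL6KO against WT, where median scaling gave -0.25. PARP4, the vault PARP, changed by -0.52 in DKO-labelled and -1.04 in BCL6KO against WT, but its second probe changed by -0.08 and -0.18 and did not pass.

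The 3 genes with other main roles fell in BCL6KO against WT as well, where 27.7% of all genes tested were lower. RAD21, the kleisin subunit of cohesin, had log2 levels of 4.39, 4.27 and 4.24 on DKO-labelled, 3.69 and 3.74 on BCL6KO and 4.94, 4.83 and 4.91 on WT arrays, and changed by -0.59 and -1.18 in DKO-labelled and BCL6KO against WT. Its other probes fell in both comparisons too, but disagreed in DKO-labelled against BCL6KO, where the probe tested rose by 0.59 and another fell by 0.24 on the log2 scale. BLMH, a cysteine peptidase that inactivates bleomycin, had log2 levels of 2.28, 2.30 and 2.30 on DKO-labelled, 0.95 and 1.29 on BCL6KO and 2.15, 2.11 and 2.19 on WT arrays. BLMH fell 2.04-fold in BCL6KO against WT, and in DKO-labelled against WT its log2 change of 0.14 did not pass the test. ERCC6L, a helicase of mitotic chromatin bridges, changed by -0.43 in DKO-labelled and -0.61 in BCL6KO against WT, and the first call was lost without any 1 DKO-labelled or WT array.

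Of the 34 genes, 21 were read by more than 1 probe passing the filter. All probes of a gene had the same sign in 19 of the 21 genes for BCL6KO against WT, in 21 for DKO-labelled against WT and in 16 for DKO-labelled against BCL6KO. Probes were called in opposite directions only for FANCB and RAD21, both in DKO-labelled against BCL6KO. RDM1, UNG, LIG4, APEX1, BRCA1, REV1, PARP11, RAD17, FANCA, FANCD2, BLMH and ERCC6L are among those that rest on 1 probe each.

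**Figure D3:**
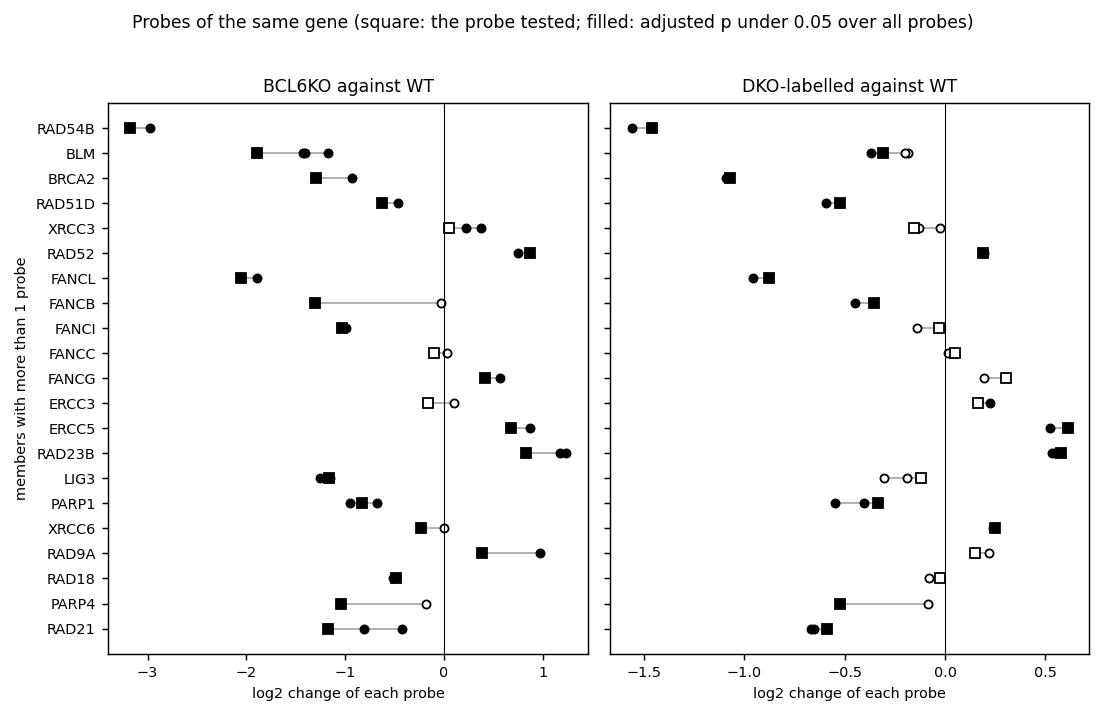
Log2 change of each probe (horizontal axis) of the 21 repair genes with more than 1 probe, for BCL6KO against WT and DKO-labelled against WT, with a square for the probe tested, circles for the others and filled marks for an adjusted p under 0.05 over all probes. In BCL6KO against WT the probes tested of FANCB and PARP4 lie at -1.31 and -1.04, and their second probes at -0.03 and -0.18.

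A list of other repair genes, chosen by role, was read beside these families. Of 48 such genes tested, 28 fell and 8 rose in BCL6KO against WT, 17 fell and 10 rose in DKO-labelled against WT, and 22 rose and 12 fell in DKO-labelled against BCL6KO. Over all genes tested, 27.7% were lower and 42% higher in BCL6KO against WT, 23.7% lower and 28.5% higher in DKO-labelled against WT, and 29% higher and 39.4% lower in DKO-labelled against BCL6KO. HMCES, which shields abasic sites in single strands, had log2 levels of 2.36, 2.30 and 2.26 on DKO-labelled, -1.63 and -2.29 on BCL6KO and 4.17, 4.09 and 4.13 on WT arrays. HMCES had a log2 change of -1.82 in DKO-labelled and -6.09 in BCL6KO against WT, with no overlap between groups.

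POLH, the bypass polymerase eta, had log2 changes of -2.42 in DKO-labelled and -1.49 in BCL6KO against WT. CHEK1, a checkpoint kinase, had log2 changes of -0.99 in DKO-labelled and -1.52 in BCL6KO against WT. DCLRE1C, the nuclease Artemis, rose by 0.94 on the log2 scale in DKO-labelled and 1.86 in BCL6KO against WT.

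DNTT, which adds untemplated bases at joins, had log2 levels of -2.24, -1.84 and -1.73 on DKO-labelled, -6.22 and -5.70 on BCL6KO and -4.80, -4.63 and -4.45 on WT arrays. It therefore rose in DKO-labelled against WT (log2 change 2.69) and fell in BCL6KO against WT (-1.33), with no overlap between groups. RMI1, a partner of BLM, showed the same order, with log2 changes of 1.10 in DKO-labelled and -0.48 in BCL6KO against WT. NBN, of the break-sensing MRE11 complex, showed the reverse order, with -0.58 in DKO-labelled and 0.67 in BCL6KO against WT.

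**Figure D4:**
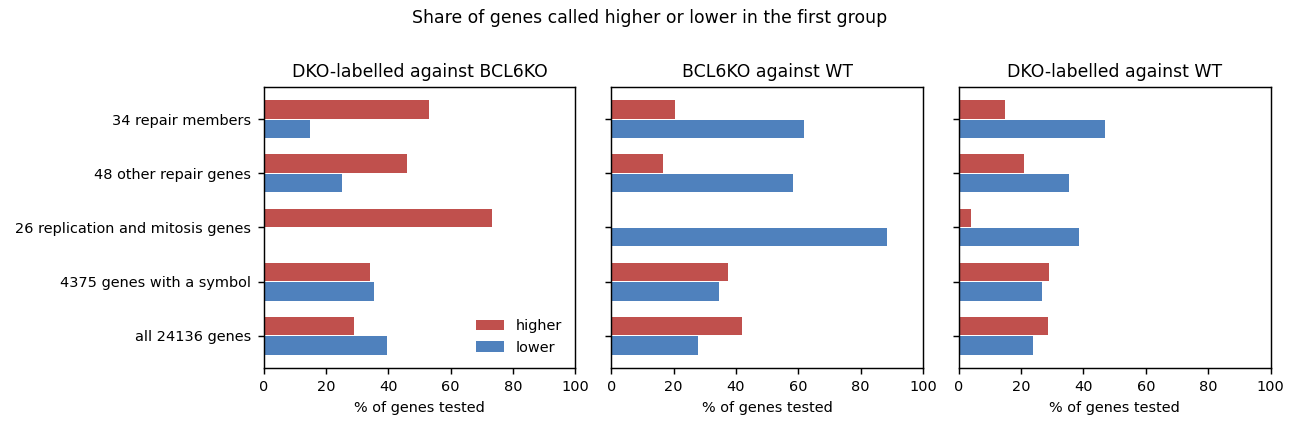
Share of genes called higher and lower (% of genes tested, horizontal axis) in the first group of each panel, for the 34 repair genes, 48 other repair genes, 26 replication and mitosis genes, the 4375 tested genes with a symbol and all 24136 genes tested. In BCL6KO against WT, 61.8% of the repair genes and 88.5% of the replication and mitosis genes were lower, against 34.7% of the genes with a symbol.

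Genes of replication and mitosis were mostly lower in BCL6KO than in WT cells as well. Of 26 such genes, 23 fell and 0 rose in BCL6KO against WT (median log2 change -0.99), where 27.7% of all genes were lower and 42% higher. In DKO-labelled against WT 10 fell and 1 rose (median -0.22), where 23.7% of all genes were lower and 28.5% higher. The share called there was 42.3%, against 52.3% of all genes. In DKO-labelled against BCL6KO 19 rose and 0 fell (median 0.69), where 29% of all genes were higher and 39.4% lower. MCM3, a replicative helicase subunit, had mean log2 levels of 3.72 ± 0.08 on DKO-labelled, 1.79 ± 0.47 on BCL6KO and 4.36 ± 0.11 on WT arrays. PCNA, the sliding clamp, changed by -1.40 in BCL6KO against WT and by -0.22 in DKO-labelled against WT, where it did not pass the test. The part of these genes in the repair gene results was not tested. In BCL6KO against WT 61.8% of the repair genes fell and 20.6% rose, compared with 34.7% and 37.5% of the 4375 tested genes with a symbol, and this difference in shares was not tested.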

How the data were processed

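Scanner files of 8 Agilent 1-colour arrays were used. Per the file headers, Agilent Feature Extraction gave the processed signal as background-subtracted intensity (array grid galGal3), and the submitters' processing notes name limma and R 2.12.0. The value table that the authors deposited as linear intensity was read for its columns labelled DKO against BCL6KO only. It is no processing alternative, as those DKO columns match none of the scanner files. Log2 of the processed signal minus the array's 75th percentile was tested in R 4.3.3 with limma 3.58.1 over all 8 arrays (data.table package, version 1.17.8). Probes well above background on 2 or more arrays were kept, and each gene used its probe of highest mean over all arrays. Control spots and outlier flags were left out. Symbols came from RefSeq (GRCg7b) accessions, which named 10857 of 43603 probes. The fit had 5 residual degrees of freedom, and the number of arrays limits its precision. Members, lists and tests were chosen with earlier results of these data known. Named were RAD54B, RDM1, APEX1, UNG, the 10 largest called changes in each comparison, genes below background in a group, the 5 of highest mean level, the 3 of smallest changes, and role examples. Single genes from the 48 other repair genes and the 26 replication and mitosis genes were picked after their values were seen. Fits were tested on simulated data with the spread of the DKO-labelled and WT arrays, so that test does not cover the wider BCL6KO spread. Alternatives are given in the closing section. One repair gene and one gene of the list of other repair genes are counted but not reported here.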

Additional observations from a re-analysis of the deposited data

How the results depend on the processing

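Over 20 alternatives common to the 3 comparisons, normexp background correction and a minimum fold of 1.5 moved the counts by over 1.5 times. With normexp as planned, 14 repair genes and 6866 genes in all were called in BCL6KO against WT, 6 and 2830 in DKO-labelled against WT, and 9 and 5928 in DKO-labelled against BCL6KO. After repair of 21 aberrant background values on BCL6KO replicate 1, 26, 20 and 24 repair genes were called. The counts over all genes after this repair are not given, so the shift cannot be read as particular to repair genes. A minimum fold of 1.5 gave 17 and 8604, 5 and 5260, and 9 and 8113. The authors' value table gave 10 and 2759 in its columns labelled DKO against BCL6KO, with ERCC3 at -0.19 and LIG4 at 1.18. Its DKO columns match none of the scanner files, so these values are no check on the processing. Among the fits that follow, those without a BCL6KO array leave 1 array in that group and no BCL6KO spread. Leaving out 1 array gave 25 to 29 repair genes and 15321 to 17619 genes in BCL6KO against WT, 15 to 26 and 10775 to 15333 in DKO-labelled against WT, and 23 to 28 and 15056 to 17449 in DKO-labelled against BCL6KO.

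Counting sign changes in which a call was made on all arrays or under the alternative, signs turned in BCL6KO against WT for FANCD2 (-0.28 with median scaling, -0.24 with quantile normalization, -0.30 with cyclic loess), PARP11 (-0.25 with median scaling) and XRCC3 (-0.25 with median scaling), and in DKO-labelled against BCL6KO for FANCI (-0.011 with normexp) and FANCA (-0.20 to 0.23 without 1 array). The FANCA calls came from fits with 1 array left in the BCL6KO group. The cause was not tested. Other changes crossed 0 with no such call: FANCA in BCL6KO against WT, BLMH, FANCC, FANCI and RAD9A in DKO-labelled against WT, and BRCA2, ERCC5, ERCC6L, FANCD2, FANCG, RAD23B, RAD51D and XRCC3 in DKO-labelled against BCL6KO, where FANCD2 ranged widest (-1.36 to 0.08). With a replicate block, 26, 18 and 23 repair genes were called; same-numbered arrays shared only a number, with correlations of deviations from -0.06 to 0.05. With slide as a fixed block, fitted only on the arrays of shared slides, 18 repair genes were called in DKO-labelled against WT, as BLM, RAD52 and XRCC6 were lost. With slide as a random block 21 were called. Counts over all genes with these blocks are not given, so the shifts cannot be read as particular to repair genes. Signal limits RDM1 on the BCL6KO arrays to a bound.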
